A study of Homo sapiens with 12 samples.

Results

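A set of 40 genes of ribosome biogenesis and of RNA polymerase I was followed through 12 RNA-seq libraries from cells labelled Jurkat. The genes were chosen by name for their known roles in the nucleolus, and all 40 were found once by their symbol among the 60671 rows of the gene table. All 40 passed the filter for testing, a mean FPKM of at least 1, together with 11551 other genes. FPKM is a fragment count divided by transcript length and by the number of mapped fragments in the library, and the scaling between libraries still affects which genes pass, as given with the results.

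Ribosomes are built in the nucleolus, where RNA polymerase I copies the ribosomal RNA genes into a long precursor. UBTF binds these genes, a selectivity factor that holds TAF1D marks the start site, and RRN3 brings the polymerase to it. Small nucleolar ribonucleoproteins then modify the precursor, those with box C/D RNAs by methylation and those with box H/ACA RNAs by pseudouridylation, while assembly factors fold and cleave it into the small and the large subunit. Growing cells, leukemia cells among them, devote much of their transcription to this pathway.

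The 4 groups had 3 libraries each, and all were harvested after 48 h. NC+DMSO and NC+VCR cells were the controls, treated with solvent (DMSO) or with vincristine (VCR), a drug that binds tubulin and stops cells in mitosis. PTPN21+DMSO and PTPN21+VCR cells overexpressed PTPN21, a cytoplasmic protein tyrosine phosphatase. The sample titles do not name the solvent, which is the control of the study's other assays. The labels call the controls wild type, whereas the methods describe lentiviral pHIV7/SFFV-GFP vector cells. The PTPN21 cells carried PTPN21-3×FLAG under the viral SFFV promoter of the same vector. The VCR dose for these libraries, the number of transduced clones and the origin of the replicates (separate cultures or not) are not given in the sources used here, so every p-value measures the spread among these libraries, which may be technical.

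PTPN21 itself was at 0.0212 to 0.0934 FPKM in NC+DMSO, 0.16 to 0.569 in NC+VCR, 7.93 to 10.5 in PTPN21+DMSO and 4.34 to 6.53 in PTPN21+VCR, as labelled. The cell identity was less clear. Of 8 T cell markers, CD3D (61.8 to 140 FPKM) and PTPRC (8.07 to 33.1 FPKM) were at 1 FPKM or more in every library. LCK and CD28 were listed at 0 in all 12 libraries, CD2 in 11 and CD3E in 9. CD3G was at 1.03 FPKM or less and CD7 at 0.605 FPKM or less. Of the erythroid markers HBA1 and HBB, HBA1 (49.4 to 190 FPKM) was at 1 FPKM or more throughout, and HBB was at 1.66 FPKM or less. Of 4 myeloid markers, CD33 (20.5 to 44.4 FPKM) and LYZ (9.08 to 17.0 FPKM) were at 1 FPKM or more throughout. ITGAM was at 0.948 to 3.39 FPKM, and CD14 was listed at 0 in 11 libraries. None of 4 B cell markers was at 1 FPKM or more in every library. The labelled T lymphocyte identity is thus not borne out by LCK, CD28, CD2 and CD3E. Depth was estimated from the steps in the FPKM of single-exon genes. It came to 28.7 to 35.9, in units of 1e6 fragments, in the NC libraries and 40.9 to 47.7 in the PTPN21 libraries. By this estimate every PTPN21 library was deeper than every NC library. The search covered a limited range and cannot tell a depth from a multiple of it. Only 45.1% to 53.4% of values were near whole, where 20% would be by chance. Correlations between libraries of 1 group ran from 0.939 to 0.976. In bulk RNA, fewer cells of a type and less of a transcript per cell cannot be told apart.

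The 40 genes were well expressed. Their mean FPKM over all libraries ran from 2.35 for POLR1A, the largest subunit of the polymerase, to 3344 for NPM1, with a median of 39.5 against 6.64 for all genes tested. Of them, 14 were above 100 FPKM, and POLR1A and UTP20 were under 5 FPKM, where single fragments weigh most. By exon annotation (GENCODE 29, GRCh38), 23 of the 40 share exon bases with another gene, 16 of them with a gene on the opposite strand. Whether the counting used strand is not stated, so those levels may hold reads of the partner.

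VCR lowered most of the genes that changed. In the NC cells 21 of the 40 fell and 4 rose (limma, Benjamini-Hochberg adjusted p under 0.05 over all genes tested), 62.5% in all against a background of 36.2% of all genes tested, and the background was 28.3% for falls and 7.91% for rises. In the PTPN21 cells 23 fell and 2 rose, again 62.5%, against a background of 28.5% in all, 19.3% for falls and 9.22% for rises. The background was higher among genes with a mean of at least 5 FPKM. There, 24 of 38 were called in NC cells (20 falls), against 42.8% of all genes (31.9% for falls). In PTPN21 cells 28 of 38 were called (24 falls), against 38.3% of all genes (25.3% for falls). The median log2 fold change of the 40 was -0.59 in NC cells, where that of all genes was -0.36, and -0.62 in PTPN21 cells, where that of all genes was -0.17. The VCR and DMSO libraries did not overlap for 29 genes in NC cells (72.5%, background 44.1%) and for 34 in PTPN21 cells (85.0%, background 50.4%).

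**Figure D1:**
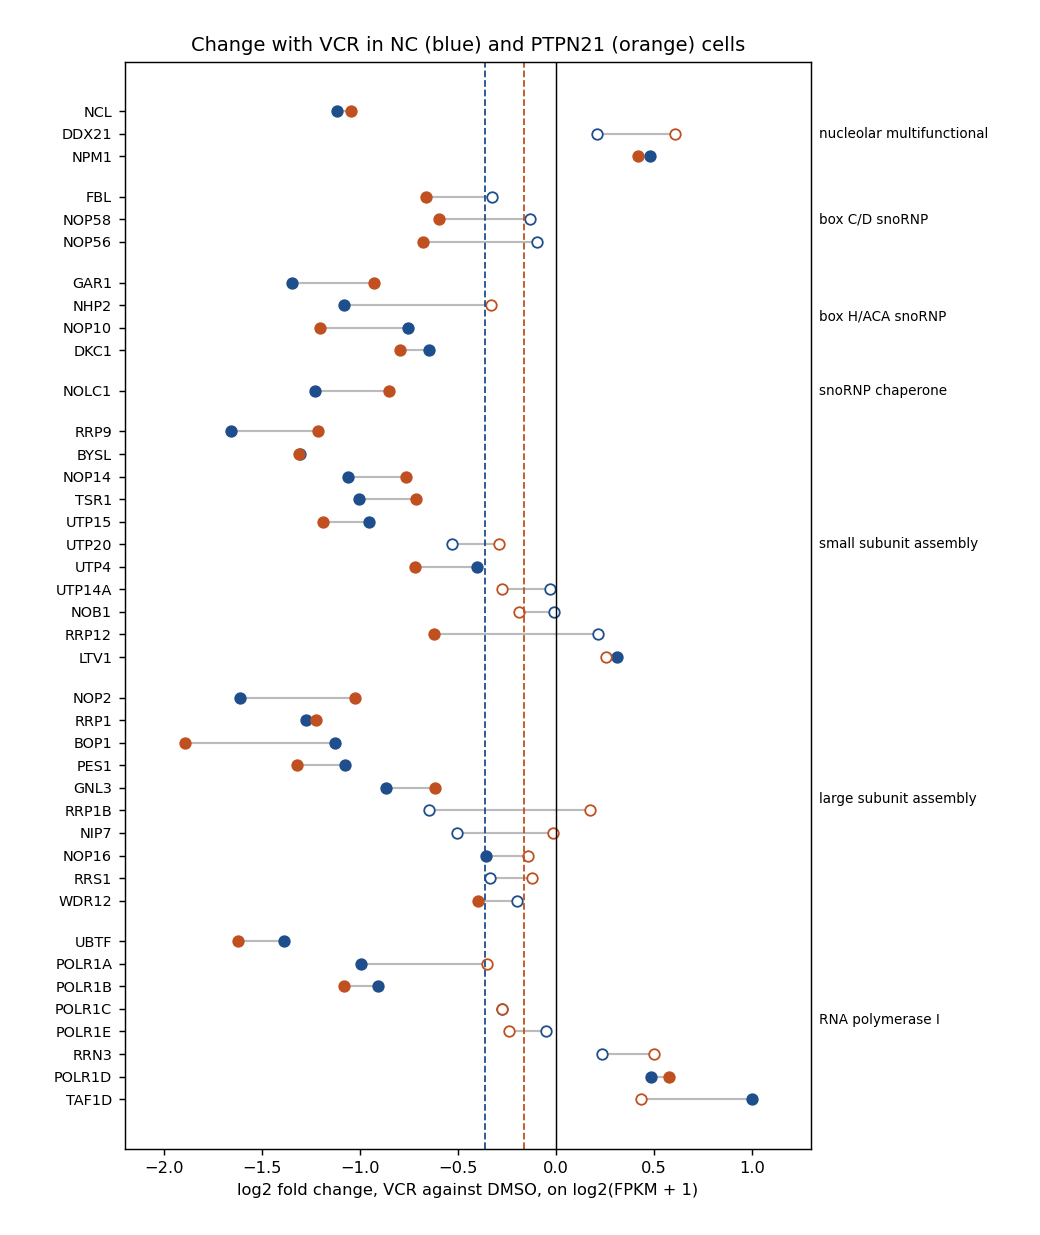
Log2 fold change on log2(FPKM + 1) of each of the 40 genes (rows, grouped by role) with VCR against DMSO, in NC cells (blue) and PTPN21 cells (orange). Filled points passed an adjusted p of 0.05, open points did not, and the dashed lines mark the medians of all genes tested, -0.36 and -0.17. BOP1, RRP9, UBTF and NOP2 hold the points farthest to the left (-1.89 to -1.61), and TAF1D in NC cells (1.00) the one farthest to the right. The filled points to the right of 0 are those of TAF1D and LTV1 in NC cells and of POLR1D and NPM1 in both, and the open points of DDX21 and RRN3 in PTPN21 cells lie there too.

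The 2 VCR comparisons share no library. In all, 18 genes fell in both, 85.7% of those that fell in NC cells and 78.3% of those that fell in PTPN21 cells, or 45.0% of the 40 where 13.8% of all genes tested fell in both. They were NCL, the box H/ACA proteins DKC1, GAR1 and NOP10, their chaperone NOLC1, the small subunit factors RRP9, BYSL, NOP14, TSR1, UTP4 and UTP15, the large subunit factors NOP2, BOP1, PES1, GNL3 and RRP1, and UBTF and POLR1B. NPM1 and POLR1D rose in both, 5.0% of the 40 and 5.02% of all genes. The sum of the erythroid markers HBA1 and HBB, nearly all of it HBA1 because HBB was at 1.66 FPKM or less, also moved with VCR. It went from 82.5 to 87.5 FPKM in NC+DMSO to 49.4 to 59.5 in NC+VCR and from 133 to 190 in PTPN21+DMSO to 60.2 to 75.5 in PTPN21+VCR. The summed myeloid markers ran from 40 to 64.8 FPKM in NC+DMSO, 30.6 to 39.3 in NC+VCR, 46.3 to 49.6 in PTPN21+DMSO and 36.7 to 38.3 in PTPN21+VCR, and the T cell markers, mostly CD3D, from 89.3 to 112, 137 to 163, 130 to 150 and 134 to 142. The part of these markers in the changes of the 40 genes was not tested.

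Promoter sequence was looked at because many of these genes fell with VCR, though others rose or did not pass. Such genes are also often described as targets of MYC, which binds the E-box word CACGTG. RefSeq promoters (GRCh38.p14, 250 bases before to 50 bases after the start) matched 33 of the 40 genes. The E-box, which reads the same on both strands, was in 11 of the 33 (33.3%) and in 7.26% of 35116 promoters. The ETS core CGGAAG, searched on both strands, was in 16 (48.5%) against 19.5%, and GCATGC, the core of the NRF1 site and also the same on both strands, was in 2 (6.06%) against 7.22%. These words cannot overlap in full, and 6 promoters held both the E-box and the ETS core. The median GC content was 63.7% in the 33 windows and 58.7% in all, and the part of composition in these shares was not tested. Of 12 E-boxes, 10 began within 50 bases of the start site, but positions were not counted in all promoters, so this is not shown to be particular to these genes. Of the 16 matched genes that fell in both VCR comparisons 7 held an E-box, and of the other 17 matched genes 4 did, so the word was found on both sides. The ETS core leaned the other way, with 6 of the 16 and 10 of the 17, and GCATGC was in 1 of each. These splits were not tested. A match is a stretch of letters, and no binding was measured. NOP10 is shown in full because it changed in each of the 4 comparisons between groups and has 2 E-boxes, RRP9 and NOP2 because they had the largest falls in NC cells, and LTV1 because it holds the word and rose. Capitals mark the E-box. The NOP10 promoter lies on the minus strand at chr15:34343137-34343386.
NOP10, 250 bases before the start: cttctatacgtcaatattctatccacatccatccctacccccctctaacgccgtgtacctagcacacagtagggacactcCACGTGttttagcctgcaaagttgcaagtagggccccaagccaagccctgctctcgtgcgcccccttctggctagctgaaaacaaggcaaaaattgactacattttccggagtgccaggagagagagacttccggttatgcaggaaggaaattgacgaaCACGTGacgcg
RRP9, chr3:51941892-51941921, minus strand: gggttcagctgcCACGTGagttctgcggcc
NOP2, chr12:6568242-6568268, minus strand: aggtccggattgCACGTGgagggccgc
LTV1, chr6:143843354-143843383, plus strand: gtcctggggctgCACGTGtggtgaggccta

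The nucleolar proteins with several roles went different ways. NCL (nucleolin), which binds the precursor RNA, was at 1043, 944 and 1892 FPKM in NC+DMSO and at 608, 440 and 680 in NC+VCR, and at 992, 1381 and 1545 in PTPN21+DMSO and 625, 730 and 524 in PTPN21+VCR. The groups did not overlap in either cell population, although 1 NC+DMSO library stood well above its mates. NCL fell with a log2 fold change of -1.12 ± 0.26 (SE) in NC cells (limma adjusted p = 0.00609) and -1.05 ± 0.26 in PTPN21 cells (limma adjusted p = 0.0103).

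NPM1 (nucleophosmin), a nucleolar chaperone and the most abundant of the 40 transcripts per length, moved the other way. It was at 2971, 3222 and 2982 FPKM in NC+DMSO and 4162, 4672 and 3979 in NC+VCR, and at 2450, 2664 and 2652 in PTPN21+DMSO and 3337, 3502 and 3538 in PTPN21+VCR. All VCR libraries were above all DMSO libraries of the same cells. The rises were 1.40-fold in NC cells (limma adjusted p = 0.00156) and 1.34-fold in PTPN21 cells (limma adjusted p = 0.00405), and with quantile normalization, under which the median of all genes moved from -0.36 to -0.02, the NC difference turned to -0.01 and the PTPN21 difference lost its call (0.16, adjusted p = 0.203). The 46 listed pseudogenes of NPM1 summed to 299 to 322 FPKM in NC+DMSO, 409 to 528 in NC+VCR, 270 to 316 in PTPN21+DMSO and 356 to 397 in PTPN21+VCR, so the copies and the gene moved in the same direction, and how reads were split between them was not tested. DDX21, an RNA helicase of the nucleolus, did not pass in either comparison, with a log2 fold change of 0.21 in NC cells (limma adjusted p = 0.471) and of 0.61 in PTPN21 cells (0.052).

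Of the 3 box C/D proteins, none passed in NC cells (background 36.2%) and all 3 fell in PTPN21 cells (background 19.3%). FBL (fibrillarin), the methyltransferase of these particles, was at 118, 124 and 114 FPKM in NC+DMSO, 110.4, 79.7 and 95.1 in NC+VCR, 188, 145 and 171 in PTPN21+DMSO and 100.2, 96.8 and 119.5 in PTPN21+VCR. The highest levels were those of PTPN21+DMSO, and the VCR libraries lay below the DMSO libraries in both cell populations. Its log2 fold change with VCR was -0.33 ± 0.14 (SE) in NC cells (limma adjusted p = 0.088) and -0.67 ± 0.14 in PTPN21 cells (limma adjusted p = 0.00444). The scaffold proteins NOP56 and NOP58 had log2 fold changes of -0.10 and -0.13 in NC cells and fell by 0.68 and 0.60 on the log2 scale in PTPN21 cells (limma, adjusted p of 0.00731 and of 0.00173). The PTPN21 calls were lost for FBL (-0.27, limma adjusted p = 0.131) and NOP56 (-0.46, 0.0567) with the GC content and length correction, and for NOP56 (-0.48, 0.057) and NOP58 (-0.41, 0.0636) with median ratio scaling. The difference between the 2 VCR effects did not pass for any of the 3 (limma adjusted p = 0.455 for FBL, 0.284 for NOP56 and 0.228 for NOP58), so the box C/D proteins are not shown to respond differently in the 2 cell populations.

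Of the box H/ACA proteins, 4 of 4 were called lower in NC cells (background 28.3%) and 3 of 4 in PTPN21 cells (background 19.3%). DKC1 (dyskerin), the pseudouridine synthase, was at 266, 253 and 245 FPKM in NC+DMSO and 166, 162 and 158 in NC+VCR, and at 232, 240.2 and 220.2 in PTPN21+DMSO and 140.0, 131 and 126 in PTPN21+VCR. The groups were far apart against a spread of at most 10.9 FPKM (SD, n = 3) within any of them. The falls were to 0.637 of the DMSO level in NC cells (limma adjusted p = 0.000266) and 0.574 in PTPN21 cells (limma adjusted p = 7.1e-05), and with median ratio scaling, under which the median of all genes was -0.04, the NC call was lost (-0.26, adjusted p = 0.0961).

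GAR1, a core protein needed for catalysis, fell from 43.8 ± 3.91 to 16.8 ± 3.48 FPKM (mean ± SD, n = 3) in NC cells and from 36.7 ± 3.51 to 18.8 ± 2.47 in PTPN21 cells, or by 1.35 and 0.93 on the log2 scale (limma, adjusted p of 0.000116 and 0.00148). NOP10, the smallest protein of the particle, was at 132, 143 and 94.2 FPKM in NC+DMSO, 69.97, 55.6 and 93.2 in NC+VCR, 359, 359 and 352 in PTPN21+DMSO and 157, 153.4 and 152 in PTPN21+VCR. In NC cells the lowest DMSO library and the highest VCR library were next to each other, whereas the PTPN21 groups lay far apart. Its log2 fold change with VCR was -0.75 ± 0.18 (SE) in NC cells (limma adjusted p = 0.00708, lost with median ratio scaling at 0.191) and -1.21 ± 0.18 in PTPN21 cells (limma adjusted p = 0.000509).

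NHP2, the RNA-binding partner of DKC1, was at 240.3, 229 and 191 FPKM in NC+DMSO, 93.9, 99.7 and 116.5 in NC+VCR, 239.5, 262 and 278 in PTPN21+DMSO and 213, 210.5 and 192.5 in PTPN21+VCR. The NC+VCR libraries stood alone at the bottom. NHP2 fell by 1.08 on the log2 scale in NC cells (SE 0.12, limma adjusted p = 6.41e-05) and had a log2 fold change of -0.34 in PTPN21 cells (limma adjusted p = 0.0547). NOLC1, which chaperones both kinds of particle, was at 177, 139 and 194 FPKM in NC+DMSO, 70.1, 78.7 and 65.2 in NC+VCR, 94.6, 108 and 96.6 in PTPN21+DMSO and 59.1, 61.6 and 45.2 in PTPN21+VCR. It was lower in every VCR library than in any DMSO library and fell to 0.419 of the DMSO level in NC cells (limma adjusted p = 0.000131) and 0.554 in PTPN21 cells (limma adjusted p = 0.00173).

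**Figure D2:**
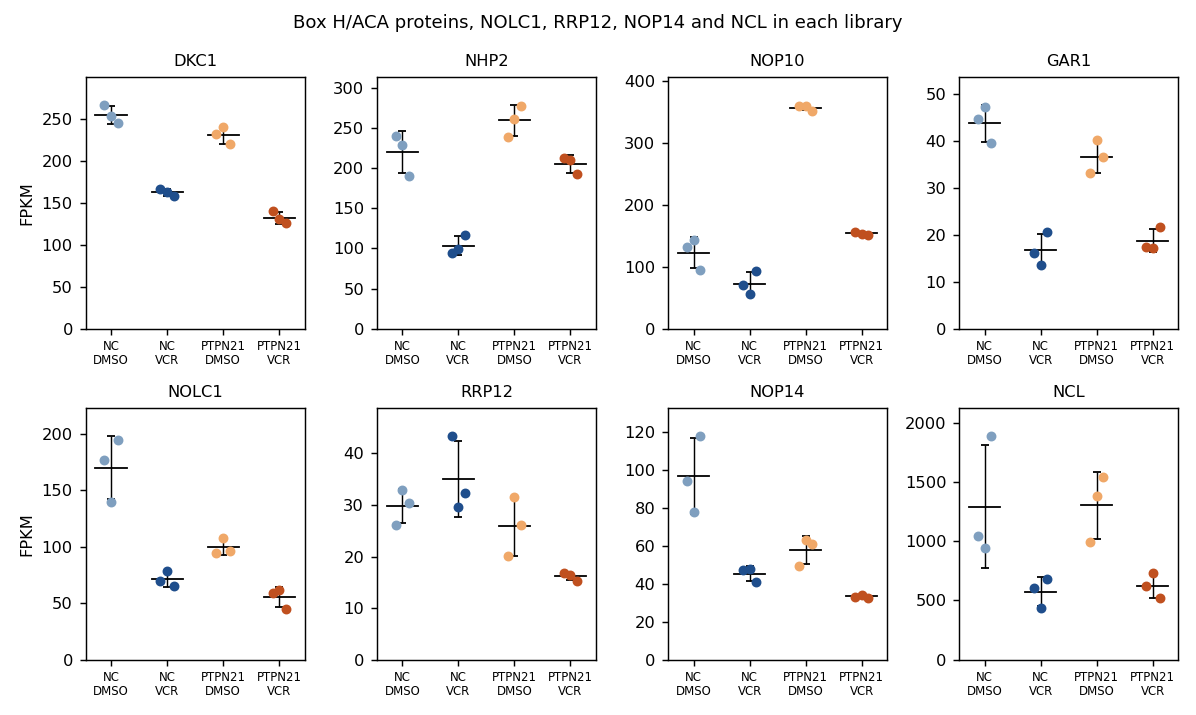
FPKM (vertical axes, each from 0) of the 4 box H/ACA proteins, NOLC1, RRP12, NOP14 and NCL in every library, by group (points), with the mean and SD of 3 libraries in black. NOP10 is near 357 FPKM in PTPN21+DMSO, above every other group, and NHP2 is lowest in NC+VCR, near 103 FPKM.

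Of the 11 small subunit assembly factors, 6 fell (54.5%, background 28.3%) and 1 rose (9.09%, background 7.91%) in NC cells. In PTPN21 cells 7 fell (63.6%, background 19.3%). RRP9, a protein of the U3 particle that guides the early cleavages, had the largest fall of the 40 in NC cells. It was at 13.3, 15.1 and 14.5 FPKM in NC+DMSO, 6.17, 2.22 and 3.94 in NC+VCR, 12.3, 12.98 and 11.1 in PTPN21+DMSO and 4.91, 3.46 and 5.84 in PTPN21+VCR. Every VCR library was under every DMSO library. RRP9 fell by 1.66 ± 0.26 (SE) on the log2 scale in NC cells (limma adjusted p = 0.000657) and had a log2 fold change of -1.21 ± 0.26 in PTPN21 cells (limma adjusted p = 0.00502). The PTPN21 call was lost with the GC content and length correction (-0.67, limma adjusted p = 0.0513). RRP9 was lowest in NC+VCR 2, and without that library it fell by 1.36 in NC cells (limma adjusted p = 0.00154). NOP2, BYSL and RRP1 were also lowest there, each at less than 0.5 of the level in both other libraries of the group.

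BYSL, a factor of small subunit maturation, fell by 1.31 on the log2 scale in both cell populations (limma, adjusted p of 0.0036 in NC cells and 0.00424 in PTPN21 cells), and by 0.91 in NC cells without NC+VCR 2. TSR1, a late factor related to GTPases, fell by 1.01 and 0.71 (limma, adjusted p of 0.00064 and of 0.0059), and UTP15, of the complex that joins the precursor early, by 0.96 and 1.19 (limma, adjusted p of 0.00901 and of 0.00325). The NC call of UTP15 was lost with median ratio scaling (-0.59, adjusted p = 0.0879) and quantile normalization (-0.61, 0.0855). TSR1 shares 1146 exon bases with SRR on the opposite strand, which was at 0.577 to 4.19 FPKM. UTP4, a partner of UTP15, fell by 0.40 and 0.72 (limma, adjusted p of 0.0276 and of 0.00157), and its NC call was lost without any 1 of NC+DMSO 1, NC+DMSO 2, NC+VCR 1 or NC+VCR 2 (limma adjusted p from 0.068 to 0.0838). The NC difference of UTP4 was -0.025 with median ratio scaling (limma adjusted p = 0.92), -0.16 with quantile normalization (0.392) and -0.094 with the GC content and length correction (0.653), and its call was also lost with the 2 groups alone (0.112). NOP14, which sits in the early particle, was at 93.9, 78.0 and 117.9 FPKM in NC+DMSO, 47.4, 47.7 and 40.8 in NC+VCR, 49.3, 63.1 and 60.7 in PTPN21+DMSO and 33.0, 34.3 and 32.5 in PTPN21+VCR. The PTPN21+DMSO libraries lay between those of NC+VCR and NC+DMSO, and every VCR library was below every DMSO library. NOP14 fell to 0.469 of the DMSO level in NC cells (limma adjusted p = 0.000392) and to 0.577 in PTPN21 cells (limma adjusted p = 0.00334). It shares 605 exon bases with its antisense gene NOP14-AS1.

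RRP12, a factor of precursor processing and export, was at 26.2, 32.9 and 30.3 FPKM in NC+DMSO, 43.4, 29.5 and 32.3 in NC+VCR, 20.01, 31.5 and 26.1 in PTPN21+DMSO and 16.8, 16.3 and 15.3 in PTPN21+VCR. The PTPN21+VCR libraries were lower than all others, while NC+VCR overlapped NC+DMSO. The log2 fold change was 0.22 in NC cells (limma adjusted p = 0.382) and -0.63 in PTPN21 cells (limma adjusted p = 0.0253), and the latter call was lost without any 1 of 5 libraries (PTPN21+DMSO 2 and 3 and PTPN21+VCR 1, 2 and 3, limma adjusted p from 0.0542 to 0.103), without the filter (0.0567) and with median ratio scaling (0.0804), quantile normalization (0.0897) or the GC content and length correction (-0.22, 0.381). LTV1, a late small subunit factor, rose 1.24-fold in NC cells (limma adjusted p = 0.0188, with 0.0586 without NC+VCR 1, 0.0995 with TPM scaling, 0.0788 without the trend and 0.0862 with the 2 groups alone) and was at 1.19-fold in PTPN21 cells (limma adjusted p = 0.054). UTP14A, UTP20 and NOB1, the endonuclease of the last cleavage, passed in neither comparison, with log2 fold changes from -0.53 (UTP20 in NC cells) to -0.01 (NOB1 in NC cells).

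Of the 10 large subunit assembly factors, 6 fell in each comparison (60.0%, background 28.3% in NC and 19.3% in PTPN21 cells) and none rose. BOP1, PES1 and WDR12 form a complex needed for processing of the large subunit RNAs. BOP1 was at 15.7, 19.7 and 23.8 FPKM in NC+DMSO, 7.07, 7.69 and 10.7 in NC+VCR, 23.4, 27.5 and 27.0 in PTPN21+DMSO and 6.80, 5.41 and 6.59 in PTPN21+VCR. It was highest in PTPN21+DMSO and lowest in PTPN21+VCR, and its fall in PTPN21 cells was the largest of the 40, to 0.241 of the DMSO level (log2 fold change -1.89 ± 0.19, limma adjusted p = 3.34e-05), against 0.430 in NC cells (-1.13 ± 0.19, limma adjusted p = 0.00105). With the GC content and length correction these values were -1.20 in PTPN21 cells, where UBTF then fell more (-1.27), and -0.51 in NC cells, both still called. The difference between the 2 effects did not pass (limma adjusted p = 0.262).

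PES1 was at 99.5, 139 and 111 FPKM in NC+DMSO, 59.8, 44.0 and 60.6 in NC+VCR, 106, 113 and 102 in PTPN21+DMSO and 45.6, 38.4 and 42.7 in PTPN21+VCR. No VCR library reached a DMSO library, and the falls were to 0.470 and 0.395 of the DMSO level (limma, adjusted p of 0.000352 and of 9.77e-05). WDR12, the third protein of the complex, changed less, with a log2 fold change of -0.20 in NC cells (limma adjusted p = 0.263) and a fall of 0.40 in PTPN21 cells (limma adjusted p = 0.0429). The WDR12 call was lost without any 1 of 8 libraries (NC+DMSO 1, NC+VCR 3 and all 6 PTPN21 libraries, limma adjusted p from 0.05 to 0.14), with the replicate number as a block (0.0778), with the 2 groups alone (0.0547) and with median ratio scaling (-0.22, 0.281) or quantile normalization (-0.20, 0.301).

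NOP2, a methyltransferase of the large subunit RNA, was at 55.7, 58.9 and 57.2 FPKM in NC+DMSO, 26.8, 9.37 and 23.0 in NC+VCR, 48.1, 50.1 and 47.2 in PTPN21+DMSO and 22.4, 25.4 and 22.1 in PTPN21+VCR. Apart from NC+VCR 2 the VCR libraries were alike, at about the same level in both cell populations. In NC+VCR 2 the gene AC006064.6, which shares 2550 exon bases with NOP2 on the same strand, was listed at 33.6 FPKM, while it was at 0.109 or less in the other 11 libraries. NOP2 fell by 1.61 ± 0.28 (SE) on the log2 scale in NC cells (limma adjusted p = 0.00105) and by 1.03 ± 0.28 in PTPN21 cells (limma adjusted p = 0.0159). The PTPN21 call was lost without the filter (0.0565) and with the GC content and length correction (-0.68, adjusted p = 0.0604). Without NC+VCR 2 the log2 fold change in NC cells was -1.18 (limma adjusted p = 0.000129).

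GNL3 (nucleostemin), a nucleolar GTPase of proliferating cells, fell to 0.546 and 0.650 of the DMSO level (limma, adjusted p of 6.95e-05 and of 0.000761), and RRP1, a processing factor, to 0.410 and 0.414 (limma, adjusted p of 0.00327 and of 0.00493). Without NC+VCR 2 the log2 fold change of RRP1 in NC cells was -0.95 (limma adjusted p = 0.00728), and with the GC content and length correction it was -0.77 in NC and -0.76 in PTPN21 cells. NOP16 fell by 0.36 on the log2 scale in NC cells (limma adjusted p = 0.0212), which equals the median shift of all genes, and the sign turned with median ratio scaling (0.03) and with a correction for GC content and length (0.03). Its call was also lost without any 1 of NC+DMSO 1, NC+DMSO 2, NC+VCR 1 or NC+VCR 2 (limma adjusted p from 0.0502 to 0.0662), without the trend (0.067) and with the 2 groups alone (0.0866). RRP1B, RRS1 and NIP7 passed in neither comparison, and the RRP1B log2 fold changes were -0.65 in NC cells and 0.17 in PTPN21 cells.

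The RNA polymerase I genes did not move in 1 direction. Of 8, 3 fell (37.5%, background 28.3%) and 2 rose (25.0%, background 7.91%) in NC cells. In PTPN21 cells 2 fell (25.0%, background 19.3%) and 1 rose (12.5%, background 9.22%). With 8 genes these shares are not shown to differ from those of all genes. UBTF, which binds along the ribosomal genes, was at 37.1, 50.8 and 48.1 FPKM in NC+DMSO, 16.8, 17.4 and 15.5 in NC+VCR, 43.0, 45.9 and 49.97 in PTPN21+DMSO and 14.3, 17.4 and 11.8 in PTPN21+VCR. The 6 VCR libraries lay between 11.8 and 17.4 FPKM and the 6 DMSO libraries above 37. UBTF fell by 1.39 ± 0.16 (SE) on the log2 scale in NC cells (limma adjusted p = 9.43e-05) and by 1.62 ± 0.16 in PTPN21 cells (limma adjusted p = 3.17e-05), and it kept both calls under all 23 alternatives tried.

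POLR1A, the largest subunit, was at 2.97, 2.83 and 4.77 FPKM in NC+DMSO, 1.12, 1.05 and 1.54 in NC+VCR, 1.76, 3.55 and 2.56 in PTPN21+DMSO and 1.05, 3.76 and 1.2 in PTPN21+VCR. 1 PTPN21+VCR library was above every PTPN21+DMSO library, so these groups overlapped while the NC groups did not. POLR1A fell in NC cells (log2 fold change -0.998 ± 0.328, limma adjusted p = 0.0328), a call that was lost without any 1 of NC+DMSO 1, NC+DMSO 3, NC+VCR 1 or NC+VCR 2 (limma adjusted p from 0.0526 to 0.113), without the filter (0.0878) and with median ratio scaling (0.106), quantile normalization (0.226) or the GC content and length correction (0.217), and had a log2 fold change of -0.35 in PTPN21 cells (limma adjusted p = 0.454).

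POLR1B, the subunit that forms the active centre with POLR1A, was at 13.9, 21.7 and 14.7 FPKM in NC+DMSO, 4.88, 10.4 and 11.02 in NC+VCR, 11.7, 13.5 and 21.2 in PTPN21+DMSO and 6.63, 6.87 and 6.15 in PTPN21+VCR. Both DMSO groups were wide and neither touched its VCR group. It fell by 0.91 ± 0.29 (SE) in NC cells (limma adjusted p = 0.0299) and by 1.08 ± 0.29 in PTPN21 cells (limma adjusted p = 0.016), and the calls were lost without NC+DMSO 2 or NC+VCR 1 (limma adjusted p = 0.102 to 0.105) and without PTPN21+DMSO 3 (limma adjusted p = 0.0722). The NC call was also lost with median ratio scaling (-0.55, adjusted p = 0.203), quantile normalization (-0.55, 0.202), the GC content and length correction (-0.61, 0.16), no filter (0.0825) and the 2 groups alone (0.0756), and the PTPN21 call without the filter (0.0513).

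POLR1D, a subunit shared with RNA polymerase III, was at 73.1, 87.6 and 71.5 FPKM in NC+DMSO, 95.5, 120.2 and 110.0 in NC+VCR, 97.8, 86.4 and 89.4 in PTPN21+DMSO and 128, 145 and 136 in PTPN21+VCR. The VCR libraries were above the DMSO libraries in both cell populations. It rose 1.40-fold in NC cells (limma adjusted p = 0.00945, and 0.0515 with the 2 groups alone) and 1.49-fold in PTPN21 cells (limma adjusted p = 0.0045, and 0.0656 with the GC content and length correction and the replicate block). POLR1C, the other shared subunit, did not pass, with log2 fold changes of -0.27 in NC cells and -0.28 in PTPN21 cells, nor did POLR1E, at -0.05 and -0.24.

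TAF1D, of the selectivity factor, had the largest rise in NC cells. It was at 194, 147 and 242 FPKM in NC+DMSO, 410.2, 350.4 and 385 in NC+VCR, 193, 204 and 188 in PTPN21+DMSO and 231, 223 and 353 in PTPN21+VCR. The NC+VCR libraries stood above 350, where 1 of the PTPN21+VCR libraries also lay. The rise was 1.96-fold in NC cells (limma adjusted p = 0.00211) and the ratio 1.38 in PTPN21 cells (limma adjusted p = 0.111), and the 2 effects differed by -0.56 on the log2 scale (limma adjusted p = 0.37). The exons of TAF1D hold 8 small RNA genes, among them snoRNAs, whose reads may be counted with it. RRN3, the initiation factor, was at 15.6, 11.7 and 16.3 FPKM in NC+DMSO, 15.6, 20.9 and 15.4 in NC+VCR, 7.74, 11.6 and 10.2 in PTPN21+DMSO and 13.2, 15.3 and 14.04 in PTPN21+VCR. It was lowest in PTPN21+DMSO and did not pass in either VCR comparison, with log2 fold changes of 0.23 in NC cells and 0.50 in PTPN21 cells (limma, adjusted p of 0.355 and of 0.0681). Its 4 pseudogenes summed to 0.14 to 1.38 FPKM.

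**Figure D3:**
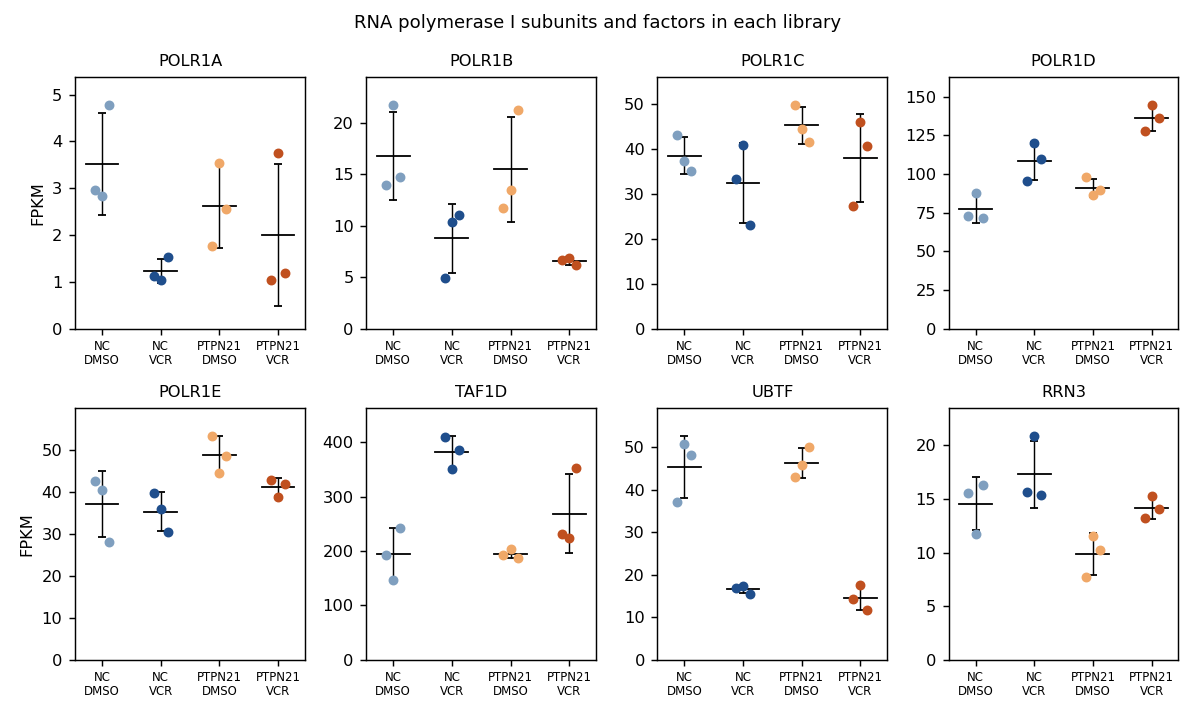
FPKM (vertical axes, each from 0) of the 8 RNA polymerase I genes in every library, by group (points), with the mean and SD of 3 libraries in black. UBTF is at or below 17.4 FPKM in all VCR libraries and above 37 in all DMSO libraries, while POLR1D is higher in the VCR groups.

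The other genes of the pathway were described from a list of 126 further ribosome biogenesis genes (processome, exosome, export, RNase MRP and polymerase genes). All 126 were found, RMRP under 2 identifiers of which 1 was tested. In NC cells 64 fell and 9 rose (57.9%, background 36.2%), with a median log2 fold change of -0.52 against -0.36 for all genes. In PTPN21 cells 45 fell and 5 rose (39.7%, background 28.5%), with a median of -0.40 against -0.17. The largest falls in NC cells were those of EXOSC4, a subunit of the RNA exosome, from 15.8 to 16.7 FPKM in NC+DMSO to 0.82 to 5.39 in NC+VCR (log2 fold change -2.39, limma adjusted p = 0.000376), and CD3EAP, a polymerase I subunit, which ranged widely (9.71 to 36.9 against 2.75 to 17.9 FPKM, log2 fold change -1.86, limma adjusted p = 0.0454) with groups that overlapped. The largest rises were those of RMRP, the RNA of RNase MRP, from 0.381 to 2.19 FPKM to 7.02 to 16.8 (2.15, limma adjusted p = 0.00162), and DCAF13, a small subunit factor, from 48.7 to 88.6 to 102 to 172 FPKM (1.06, limma adjusted p = 0.0111). Without VCR, RMRP was also at 6.69 to 14.5 FPKM in PTPN21+DMSO (log2 fold change 2.25 against NC+DMSO, limma adjusted p = 0.0124).

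PTPN21 overexpression changed few of the 40 genes. Between PTPN21+DMSO and NC+DMSO, NOP10 rose and NOLC1 and NOP14 fell, 7.5% of the 40 against a background of 6.34% (2.65% for rises, 3.69% for falls), with a median log2 fold change of -0.13 against -0.14 for all genes. Between PTPN21+VCR and NC+VCR, NOP10 and NHP2 rose and RRP12 fell, again 7.5% against a background of 1.82% (1% for rises, 0.82% for falls), with a median of -0.15 against 0.03. The background depends on expression level. At a minimum mean of 5 FPKM, 3 of the 38 genes tested were called in this VCR comparison, where 5.15% of all genes were. In DMSO the count was 1 without NC+DMSO 1 or 3 or PTPN21+DMSO 1 or 3, where 0.578% to 1.6% of all genes were called, and 6 without NC+DMSO 2, where 11.6% were. With median ratio scaling 4 rose and 2 fell (3.64% and 1.3% of all genes), and with TPM scaling 1 rose and 5 fell (1.93% and 7.51% of all genes). In VCR the count was 1 without PTPN21+VCR 1 or 2, where 0.595% and 0.371% of all genes were called. The groups did not overlap for 21 genes in DMSO (52.5%, background 33.4%) and 16 in VCR (40%, background 22.5%). The PTPN21 libraries were also deeper by the estimate from FPKM steps. Their summed erythroid markers, nearly all HBA1, were higher (133 to 190 against 82.5 to 87.5 FPKM in DMSO and 60.2 to 75.5 against 49.4 to 59.5 FPKM in VCR). The part of depth and of these markers in the differences was not tested.

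NOP10 was 2.90-fold higher in PTPN21+DMSO than in NC+DMSO (357 ± 4.14 against 123 ± 25.4 FPKM, SD, n = 3, log2 fold change 1.55 ± 0.18 SE, limma adjusted p = 0.00191) and kept this call under all 23 alternatives tried. In VCR it was 2.11-fold higher (154 ± 2.41 against 72.9 ± 19.0 FPKM, log2 fold change 1.10 ± 0.18, limma adjusted p = 0.0127), with limma adjusted p of 0.0509 to 0.0572 when PTPN21+VCR 1 or 2 was left out and of 0.0618 with the GC content and length correction and the replicate block. NOP10 shares no exon base with another annotated gene. NHP2, its partner in the particle, was 1.99-fold higher in PTPN21+VCR than in NC+VCR (205 ± 11.3 against 103 ± 11.7 FPKM, log2 fold change 0.99 ± 0.12, limma adjusted p = 0.00268), kept in all 23 alternatives, and 1.18-fold higher in DMSO, where the groups overlapped (limma adjusted p = 0.227). NHP2 shares 414 exon bases with RMND5B on the opposite strand, which was at 0.916 to 2.86 FPKM in NC+VCR and 2.28 to 3.16 in PTPN21+VCR. DKC1 and GAR1, the other box H/ACA proteins, did not pass in either comparison. The log2 fold change of DKC1 was -0.14 in DMSO and -0.29 in VCR (limma, adjusted p of 0.337 and of 0.113).

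A pair of snoRNP and small subunit factors were lower in PTPN21+DMSO than in NC+DMSO. NOLC1 was at 99.8 ± 7.23 against 170.1 ± 28.1 FPKM (SD, n = 3, log2 fold change -0.75 ± 0.15 SE, limma adjusted p = 0.0217) and NOP14 at 57.7 ± 7.37 against 96.6 ± 20.1 FPKM (-0.72 ± 0.16, limma adjusted p = 0.0255). The groups did not overlap for either gene, yet both calls were lost without any 1 of NC+DMSO 1, NC+DMSO 3, PTPN21+DMSO 1 or PTPN21+DMSO 3 (limma adjusted p from 0.062 to 0.111), and without the filter (0.0581 and 0.0617) or with the 2 groups alone (0.0715 and 0.086), and that of NOP14 without the trend (0.0519) and with the replicate number as a block (0.0542). In VCR their log2 fold changes were -0.37 and -0.43 (limma, adjusted p of 0.241 and of 0.174). RRP12 was at 16.1 ± 0.744 FPKM in PTPN21+VCR against 35.1 ± 7.33 in NC+VCR (-1.06 ± 0.19, limma adjusted p = 0.0184), a call that was lost without NC+VCR 1 or any 1 of the PTPN21+VCR libraries (limma adjusted p from 0.0558 to 0.0746) and with the replicate number as a block (0.052). RRP12 shares 519 exon bases with an antisense gene, AL355490.2, which was at 2.95 FPKM or less.

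**Figure D4:**
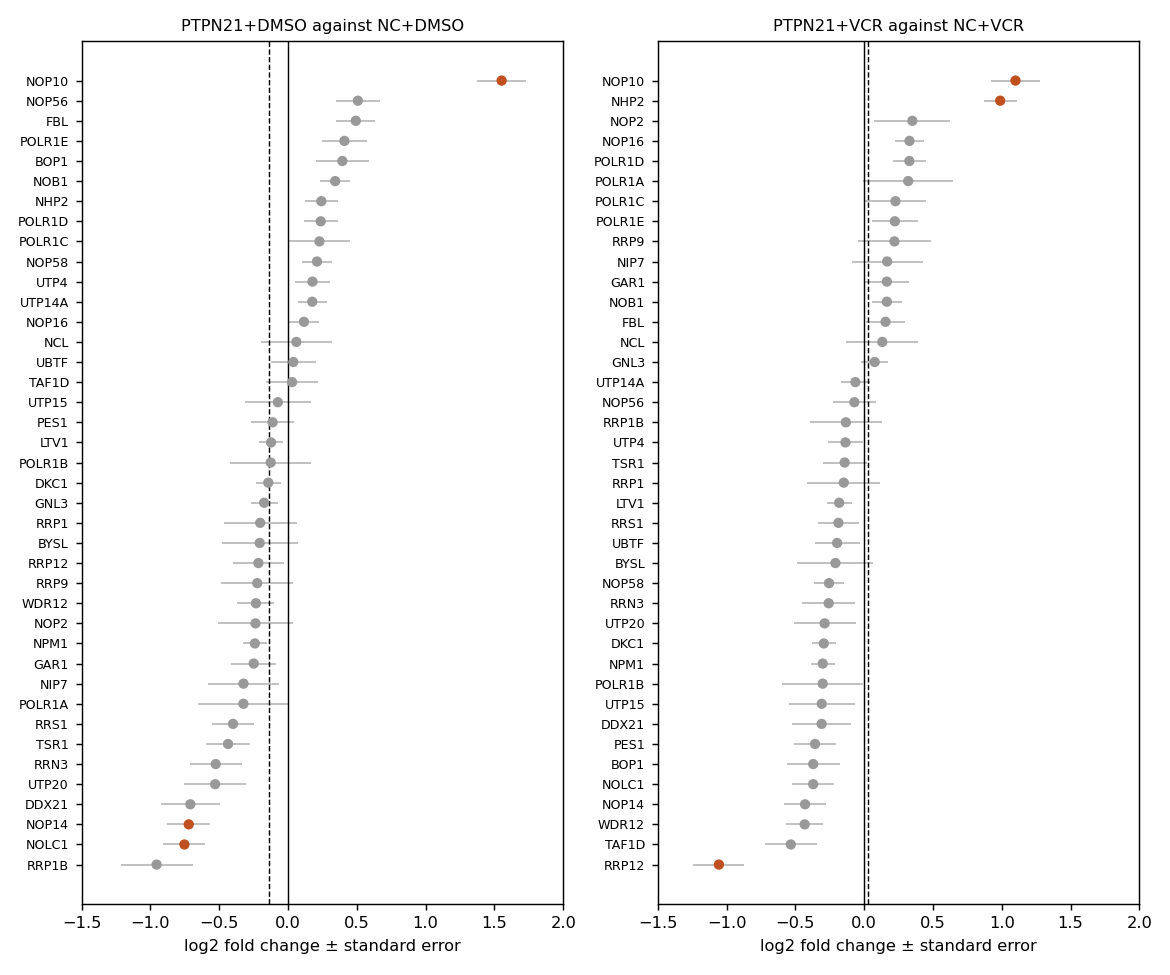
Log2 fold change on log2(FPKM + 1) with its standard error of each of the 40 genes between PTPN21 and NC cells, in DMSO (left) and in VCR (right), sorted within each panel. Orange points passed an adjusted p of 0.05, and the dashed lines are the medians of all genes, -0.14 and 0.03. NOP10 is highest in both panels, at 1.55 and 1.10.

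The RNA polymerase I genes did not pass in either PTPN21 comparison. Their log2 fold changes ran from -0.53 (RRN3) to 0.41 (POLR1E) in DMSO and from -0.53 (TAF1D) to 0.33 (POLR1D) in VCR. UBTF was at 1.02-fold in DMSO and 0.874-fold in VCR (limma, adjusted p of 0.91 and of 0.595). NPM1 was lower in the PTPN21 groups without overlap, at 0.846-fold in DMSO and 0.810-fold in VCR, and did not pass (limma, adjusted p of 0.114 and of 0.0995). RRP1B, at 0.447-fold in DMSO, lay next to the threshold (limma adjusted p = 0.0505). In the list of 126 further genes, 6 rose and 6 fell in DMSO (9.52%, background 6.34%) and 2 rose and 2 fell in VCR (3.17%, background 1.82%).

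Whether VCR acted differently in the 2 cell populations was tested as the interaction. None of the 40 passed (limma, Benjamini-Hochberg), against 0.129% of all genes tested (0.0259% higher and 0.104% lower), and 6 (15%) had an unadjusted p under 0.05, as had 1624 of the 11591 genes tested. NHP2 came closest, with a VCR effect that was higher by 0.75 ± 0.17 (SE) on the log2 scale in PTPN21 cells (limma adjusted p = 0.116). It was followed by RRP12, at -0.84 ± 0.26 (limma adjusted p = 0.216), and NOP58, at -0.47 ± 0.15 (limma adjusted p = 0.228). Their calls differed between the VCR comparisons, but the differences themselves did not pass.

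The count of genes that fell with VCR depended on how libraries were scaled. With median ratio scaling, which sets that median near 0, 14 fell and 7 rose in NC cells in place of 21 and 4, and 19 fell and 6 rose in PTPN21 cells in place of 23 and 2. Under this scaling 11.7% of all genes tested fell and 14.8% rose in NC cells, and 12.5% fell and 13.7% rose in PTPN21 cells. Besides the genes described above with this correction, that for GC content and length made the log2 fold change over 1.5 times smaller for DKC1 (-0.36), PES1 (-0.59), UBTF (-0.89) and TSR1 (-0.62) in NC cells and for BYSL (-0.87) in PTPN21 cells, all still called. Across all alternatives tried, 14 to 24 fell and 2 to 7 rose in NC cells and 18 to 24 fell and 2 to 6 rose in PTPN21 cells. Among others, RRP9, NOP2, BYSL, UBTF, BOP1, PES1 and NCL kept their calls in NC cells under all 23 alternatives, and UBTF, BOP1, PES1, BYSL, DKC1 and NCL did in PTPN21 cells.

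**Figure D5:**
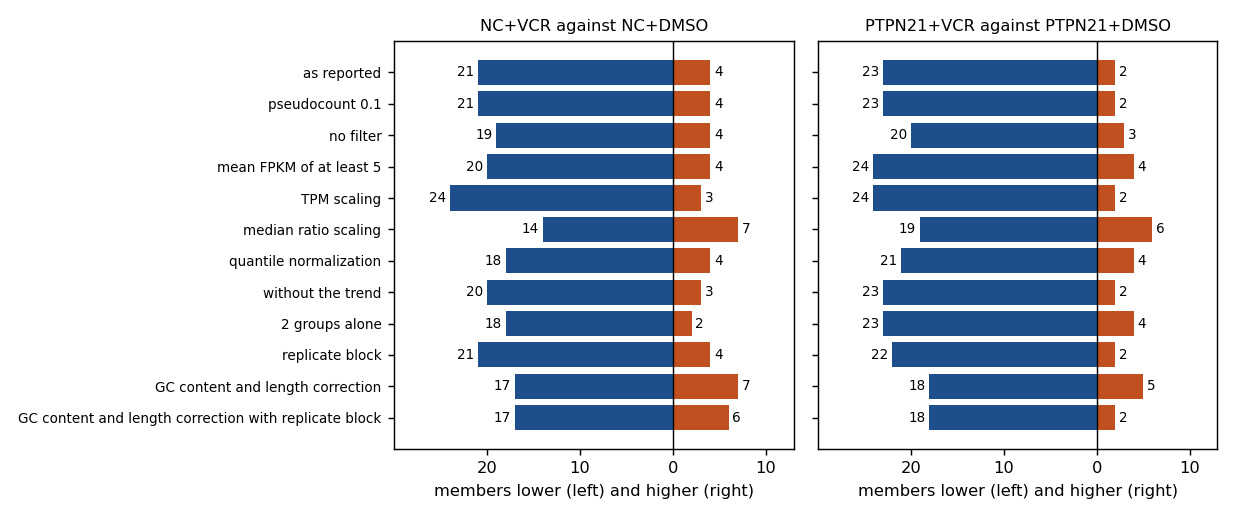
Number of the 40 genes called lower (blue, to the left) and higher (orange, to the right) with VCR in NC cells and in PTPN21 cells, under each way of processing. Falls outnumber rises in every row, from 14 against 7 to 24 against 3 in NC cells and from 18 against 5 or 2 to 24 against 2 or 4 in PTPN21 cells.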

How the data were processed

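Cells labelled Jurkat were sequenced after 48 h, with 3 libraries in each of 4 groups taken from the sample titles. The titles read NC, OE, VCR or OEVCR with a number and do not name DMSO. The study's RNA sequencing methods describe the VCR-treated cells only, and DMSO is the control named for its other assays. The authors deposited FPKM values for 60671 genes, made by an external company. The submitters' processing notes name fastp, Bowtie2 and the mouse build mm10 although the identifiers are human. The counter, annotation and strand setting are not given in the sources used here. From the deposited FPKM, log2(FPKM + 1) was taken for the 11591 genes with a mean of at least 1, and limma 3.58.1 (R 4.3.3) was fitted to all 12 libraries with an intensity trend and a mean per group, with Benjamini-Hochberg adjustment over all genes and a threshold of 0.05. Fold changes on this scale understate those of low genes. FPKM steps of single-exon genes gave 28.7 to 47.7 (in 1e6 fragments) per library, with 45.1% to 53.4% of values near whole, so counts were not recovered and depth limits mainly genes of low FPKM. Gene positions came from GENCODE 29.

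The 40 genes, the list of 126 and the markers were chosen with earlier results of these data known. An item of the marker list is not reported here. Values in every library are given for genes that passed in a PTPN21 comparison, the 3 largest rises and falls called in each VCR comparison, and NCL, NPM1, FBL, DKC1, POLR1A, POLR1B, UBTF and RRN3. GAR1 and other genes given by mean or fold were named to complete their group. The alternatives used a pseudocount of 0.1, all genes unfiltered, a minimum mean of 5, TPM, median ratio and quantile scaling, no trend, the 2 groups alone, the replicate number as a block and each library left out. A GC content and length correction (loess, span 0.3), alone and with the block, was added after the data had been seen.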

Additional observations from a re-analysis of the deposited data

How the results depend on the processing

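Of the 56 calls made for single genes, 44 were kept when any 1 of the 12 libraries was left out and 12 were lost in at least 1 case, and no call changed sign. The other alternatives kept 552 of 615 values, 59 lost their call and 4 reversed: NPM1 in NC cells with quantile normalization (-0.011), and NOP16 in NC cells with median ratio scaling (0.032) and with the GC content and length correction without or with the block (0.025). The cause was not tested.

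The replicate numbers did not pair the libraries. This was read from the deviations of each library from its group mean, gene by gene, and not from the levels themselves. The deviations of the 18 same-number pairs correlated between -0.145 and 0.0583, and those of 2 of 12 libraries matched best with their own number. With the replicate block the calls were 25 (NC, VCR), 24 (PTPN21, VCR), 2 (PTPN21, DMSO), 2 (PTPN21 in VCR) and 0 (interaction). The shares of all genes called were then 32.7%, 25.5%, 2.09%, 0.638% and 0.069%.

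The median log2 fold change of the 40 genes with VCR moved in NC cells to -0.24 with median ratio scaling, -0.34 with quantile normalization and -0.28 with the GC content and length correction, and in PTPN21 cells to -0.43, -0.47 and -0.49. These scalings also moved the median of all genes, and the distance to it moved beyond the spread only without the filter, to -0.53 in NC and -0.61 in PTPN21 cells. For the interaction the median moved to -0.19 with median ratio scaling and -0.21 with the GC correction, and the distance to all genes to -0.040 without the filter and -0.012 with quantile normalization. Between PTPN21+DMSO and NC+DMSO the 3 calls became 1 without the filter (0.628% of all genes called) or with the 2 groups alone (0.345%). They became 7 of the 38 genes tested at a minimum mean of 5 (14.2% of all genes), and 6 with TPM (9.45%) or median ratio scaling (4.94%). The median moved to -0.28 with TPM, 0.045 with median ratio scaling and 0.0034 with the GC correction.

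Without 1 library, the calls ranged from 21 to 25 and from 22 to 28 for VCR in NC and PTPN21 cells, where 27.8% to 34.7% and 20.3% to 31.2% of all genes were called. The calls ranged from 1 to 6 for PTPN21 in DMSO (1 without NC+DMSO 1 or 3 or PTPN21+DMSO 1 or 3, 6 without NC+DMSO 2) and from 1 to 3 for PTPN21 in VCR (1 without PTPN21+VCR 1 or 2). Genes at a few FPKM, such as POLR1A, UTP20 and RRP9, rest on few fragments.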
